A study of Mus musculus with 7 samples.

Results

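Sox8, Sox9 and Sox10 are the 3 mouse genes of the SoxE group of transcription factors, and they were taken by name as 3 of the 17784 genes listed in the 7 single-cell libraries of a cell conversion study. The libraries were made from C57BL/6 mouse cells, 1 library per population, on the ddSEQ droplet system with a kit that reads the 3′ ends of transcripts and counts unique molecular identifiers (UMIs). Going by its title, the study is about memory of the donor cell after direct conversion into oligodendrocyte progenitor-like cells. Untreated cells were primary oligodendrocyte progenitors from brain (pOPC), embryonic fibroblasts (MEF) and primary cerebral pericytes (PC). Fibroblasts or pericytes transduced with virus carrying Olig2 and Sox10 are called MEF-2F and PC-2F, and those transduced with virus carrying Olig2, Sox10 and Nkx6.2 are called MEF-3F and PC-3F. The progenitors and, going by the labels' name iOPC, the converted cells were kept in OPC medium, fibroblasts in MEF medium and pericytes in pericyte medium, so medium and conversion cannot be told apart. The vectors, their promoters, the time after transduction and the age of the animals are not given in the sources used here.

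SoxE proteins bind DNA through a high-mobility-group box and act alone or as dimers, mostly as activators. Sox9 directs cartilage formation and, in the nervous system, the specification of glia from neural progenitors, while Sox10 is required for the neural crest, for Schwann cells and for the terminal differentiation of oligodendrocytes. Sox8 overlaps both in function and usually has the mildest effect when lost, and in oligodendrocyte progenitors the 3 proteins occur together.

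The 3 genes lie on 3 chromosomes (GRCm38/mm10, GENCODE vM21). Sox8 is at chr17:25565892-25570686 on the minus strand with 3 exons, Sox9 at chr11:112782224-112787760 on the plus strand with 3 exons, and Sox10 at chr15:79154908-79165240 on the minus strand, where the transcript used (Sox10-203) has 5 exons. A 60-base coding stretch of the high-mobility-group box is shown because it is where the 3 transcripts are most alike, so that a read from it could be assigned to the wrong gene. It lies in exon 1 of Sox8 (chr17:25570160-25570219), exon 1 of Sox9 (chr11:112782906-112782965) and exon 3 of Sox10 (chr15:79163339-79163398), is written 5′ to 3′ on the strand of each gene, and has capitals where the 3 sequences are not all the same.
Sox8: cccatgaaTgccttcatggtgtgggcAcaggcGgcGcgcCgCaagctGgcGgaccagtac
Sox9: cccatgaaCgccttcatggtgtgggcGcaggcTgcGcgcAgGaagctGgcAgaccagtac
Sox10: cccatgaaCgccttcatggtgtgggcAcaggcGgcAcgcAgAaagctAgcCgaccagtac
In this stretch 52 of 60 bases are the same in all 3, and each pair shares 54. The stretch ends 2473 bases before the transcript end in Sox8, 3393 in Sox9 and 2053 in Sox10. The longest run of identical bases shared by a pair is 44 (Sox9 and Sox10), in coding sequence outside the stretch shown. Beyond the stop codon the longest run is 20 for Sox8 and Sox9, 10 for Sox8 and Sox10 and 11 for Sox9 and Sox10. The 3 counts are therefore treated as separate, on the condition that the counted ends lie beyond the stop codon, which the labels' 3′ protocol gives only in general terms. Reads from the Sox10 carried by the virus and from the cells' own gene cannot be told apart in these counts, because the annotation has 1 row for Sox10. As the vectors are not given, it is also not known whether the 3′ ends of virus-borne Sox10 and Olig2 lie within the annotated genes. The levels of both may therefore leave out part or all of the virus-borne transcripts, which was not tested.

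The libraries kept 82 to 290 cells and 230113 to 1292329 UMIs, with a median of 1866 (MEF-3F) to 6259 (PC-2F) UMIs per cell, and no barcode was shared by a pair of libraries. A level below is a gene's UMIs scaled to the library total (CPM, as in RNA-seq count tables), with a 95% exact Poisson interval. Because UMIs count 3′ ends, no term for transcript length was applied. With 1 library per population there is no test between populations. The intervals hold counting error and say nothing of how cultures vary. A gene is called higher or lower when its level differs at least 2-fold with an interval of the ratio that excludes 1. Of 10 OPC markers, 8 had more than 3 UMIs in pOPC, among them Olig2 (1657 CPM) and Pdgfra (1374 CPM), while Lhfpl3 and Matn4 were at 0. In PC, Rgs5, Kcnj8, Abcc9, Vtn and Higd1b of 9 pericyte markers had 0 UMIs, and their sum was 361 CPM against 512 CPM in MEF. Barcodes fall into 2 blocks, unexplained by the labels, in MEF-3F, PC and MEF-2F.

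Sox10, the transduced member, was close to Sox9 in the progenitors and took up most SoxE UMIs in every converted library, without reaching the progenitors' level. Its level was 591 CPM in pOPC (interval 533 to 654, 374 UMIs), 12.7 in MEF (6.07 to 23.3, 10 UMIs) and 0 in PC, where 3 UMIs would be 2.32 CPM. After conversion MEF-2F held 130 CPM (87.96 to 186, 30 UMIs), MEF-3F 244 (201 to 294, 112 UMIs), PC-2F 251 (223 to 281, 301 UMIs) and PC-3F 216 (181 to 255, 137 UMIs). Ordered by level, pOPC stood above PC-2F, while PC-2F, MEF-3F and PC-3F did not differ from their neighbours beyond counting error. MEF-2F lay below PC-3F by 1.66-fold (interval 1.11 to 2.55) and above MEF.

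**Figure D1:**
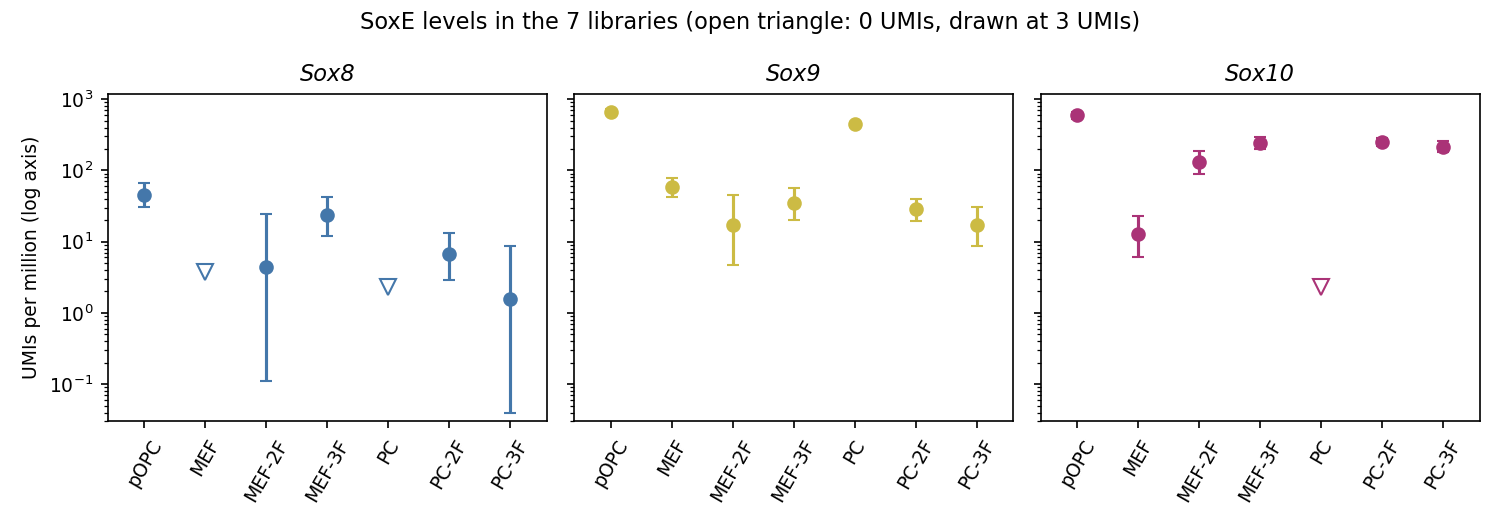
Levels of Sox8, Sox9 and Sox10 (CPM, log axis) in the 7 libraries, as points with 95% exact Poisson intervals; an open triangle marks 0 UMIs and is drawn at the level of 3 UMIs. Sox9 is high in pOPC and PC only (658 and 442 CPM), Sox10 is at 130 to 251 CPM in the converted libraries and 591 CPM in pOPC, and Sox8 stays at or below 45.8 CPM throughout.

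Against its donor, Sox10 was called higher in all 4 converted libraries. The ratio was 10.3 (interval 4.90 to 23.6) in MEF-2F and 19.3 (10.1 to 41.4) in MEF-3F. With PC set at 3 UMIs in all, PC-2F was at least 108-fold higher than PC, and for PC-3F the bound was 93.0-fold. Of all measured genes, 19.0% (MEF-2F over MEF), 23.6% (MEF-3F over MEF), 17.7% (PC-2F over PC) and 18.8% (PC-3F over PC) were called higher. MEF-2F and MEF-3F share their donor library, as do PC-2F and PC-3F.

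Set against the progenitors, Sox10 was called lower in each converted library, and all 4 comparisons share the pOPC library. MEF-2F was 4.54-fold lower (interval 3.12 to 6.82), MEF-3F 2.42-fold (1.95 to 3.02), PC-2F 2.36-fold (2.02 to 2.75) and PC-3F 2.74-fold (2.25 to 3.36). The shares of all measured genes called lower than in pOPC were 25.1% (MEF-2F), 21.1% (PC-2F), 19.5% (MEF-3F) and 21.8% (PC-3F). With scaling by a trimmed mean of log ratios the PC-2F difference was -0.97 on the log2 scale, just under 2-fold. Olig2, the factor transduced with Sox10, was further from the progenitors than Sox10 in each converted library: pOPC held 1657 CPM, MEF-3F 330, PC-2F 191, PC-3F 88.2 and MEF-2F 65.2, and both donors were at 0. In bulk or summed counts fewer cells with a transcript and less RNA per cell give the same level, so cells are counted next.

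Sox10 UMIs were found in 107 of 134 pOPC cells (79.9%), 5 of 131 MEF cells (3.82%) and 0 of 290 PC cells, which at 3 cells allows a share of cells with a UMI of up to 1.03% and does not limit cells expressing the gene below detection. After conversion MEF-2F had them in 14 of 82 cells (17.1%), MEF-3F in 50 of 161 (31.1%), PC-2F in 100 of 179 (55.9%) and PC-3F in 65 of 147 (44.2%). Depth differed between these libraries. With each cell thinned to 1000 UMIs, which left out cells with fewer, the expected share was 43.9% for pOPC (interval 34.8 to 53.5), 8.79% for MEF-2F (3.84 to 18.3), 17.4% for MEF-3F (10.98 to 25.1), 20.3% for PC-2F (14.6 to 26.9) and 18.0% for PC-3F (11.98 to 24.99). At equal depth the pOPC share lay above that of every converted library, and the intervals of the 4 converted libraries overlapped. Thinning left out 18 pOPC cells and 39 MEF-3F cells, 7 of MEF-2F and 1 each of PC-2F and PC-3F. No cell of a converted library held more than 14 Sox10 UMIs, against 13 in pOPC. pOPC had 31 cells with at least 5 Sox10 UMIs, PC-2F 18, MEF-3F 7, PC-3F 3 and MEF-2F 1.

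Sox9, the SoxE member that was not transduced and that drives cartilage genes, was the main SoxE transcript of the pericytes and fell in both converted pericyte libraries. Its level was 658 CPM in pOPC (interval 596 to 724, 416 UMIs), 442 in PC (406 to 480, 571 UMIs) and 58.2 in MEF (42.6 to 77.7, 46 UMIs). After conversion MEF-2F held 17.4 CPM (4.74 to 44.5, 4 UMIs), MEF-3F 34.9 (19.96 to 56.7, 16 UMIs), PC-2F 28.4 (19.6 to 39.6, 34 UMIs) and PC-3F 17.3 (8.65 to 31.0, 11 UMIs). Against pOPC both donors were lower: PC by 1.49-fold (1.31 to 1.69), short of the 2-fold rule, and MEF by 11.3-fold, with 27.7% and 32.3% of genes called lower. The order was pOPC, PC, MEF, MEF-3F, PC-2F, MEF-2F and PC-3F, and from MEF downwards no neighbours differed beyond counting error. PC lay 7.59-fold above MEF (interval 5.61 to 10.5).

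From PC, Sox9 was 15.6-fold lower in PC-2F (interval 11.02 to 22.7) and 25.5-fold lower in PC-3F (14.1 to 51.4). Of all measured genes 12.8% were called lower in PC-2F than in PC and 15.0% in PC-3F than in PC. From MEF, Sox9 was called lower in MEF-2F, by 3.35-fold (1.22 to 12.8, on 4 UMIs), where 14.6% of genes were called lower. In MEF-3F the ratio was 1.67-fold lower with an interval of 0.927 to 3.16, and the gene was not called (12.7% of genes were). Against pOPC, Sox9 was called lower in all 4: MEF-2F by 37.8-fold (14.7 to 139.5), MEF-3F by 18.8-fold (11.5 to 33.3), PC-2F by 23.2-fold (16.3 to 33.9) and PC-3F by 38.0-fold (21.0 to 76.6). Sox9 was thus further below the progenitors than Sox10 in every converted library.

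In pOPC 101 of 134 cells held a Sox9 UMI (75.4%), in PC 192 of 290 (66.2%) and in MEF 26 of 131 (19.8%). After conversion MEF-2F had 4 such cells of 82 (4.88%), MEF-3F 10 of 161 (6.21%), PC-2F 10 of 179 (5.59%) and PC-3F 8 of 147 (5.44%). Thinned to 1000 UMIs per cell, the shares were 47.0% in pOPC (interval 38.1 to 56.9), 32.3% in PC (26.6 to 38.2), 5.13% in MEF (2.21 to 10.9), 2.34% in PC-2F (0.616 to 5.65) and 1.31% in PC-3F (0.166 to 4.86). Fewer cells carried Sox9 after conversion of pericytes, and the cells that did were not all low: in PC-2F the 10 cells held 34 UMIs, up to 7 in 1 cell, and 3 of them had at least 5.

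The pericyte library holds cells with keratin transcripts, which is not a pericyte trait, and Sox9 was present in cells with and without them. These genes were picked after their values were seen. In the 99 cells with Krt20 the Sox9 level was 548 CPM (interval 490 to 611), in 87 cells with Krt19 but no Krt20 it was 291 CPM (240 to 349), and in 104 cells with neither it was 431 CPM (361 to 511). Median UMIs per cell were 5707, 3759 and 2096 in these sets. The part of keratin cells in the Sox9 level of PC was not tested.

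Sox8 was the scarcest of the 3 by 3′-end counts in every library (level with Sox10, at 0, in PC), though in MEF-3F, MEF-2F and PC-3F its interval overlapped that of Sox9. It had 29 UMIs in pOPC (45.8 CPM, interval 30.7 to 65.8), 0 in MEF and in PC, and after conversion 1 for MEF-2F (4.35 CPM, 0.110 to 24.2), 11 for MEF-3F (24.0 CPM, 12.0 to 43.0), 8 for PC-2F (6.67 CPM, 2.88 to 13.1) and 1 for PC-3F (1.58 CPM, 0.0399 to 8.78). The upper end of the interval at 0 UMIs was 4.67 CPM in MEF and 2.85 CPM in PC. MEF-3F therefore held the most Sox8 after pOPC, 1.91-fold below it with an interval of 0.926 to 4.24, and stood 3.60-fold above PC-2F (1.32 to 10.3). Against its donor, MEF-3F had at least 6.32-fold higher Sox8, and the gene was called higher there. In PC-2F, at 8 UMIs, it was at least 2.87-fold higher than in PC and had too few UMIs to be measured under the rule. MEF-3F also exceeded PC-3F (15.2-fold on 1 UMI in PC-3F, 2.22 to 656), in a comparison where 15.5% of genes were called higher.

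Sox8 needs 2 reservations. It overlaps the antisense transcript 2810468N07Rik on the plus strand, and whether the counting used strand is not given in the sources used here, so its reads and those of the antisense gene may not be separated. That transcript had 24 UMIs in pOPC (37.9 CPM) and 24 in MEF-3F (52.4 CPM), the same pair of libraries where Sox8 was highest, and 0 in PC, while in PC-3F it had 12 UMIs (18.9 CPM) against 1 for Sox8. Only 2 of the 22 pOPC cells with Sox8 and 1 of the 8 in MEF-3F also had an antisense UMI. All 11 Sox8 UMIs of MEF-3F came from the second barcode block, which held 367830 of its 458238 UMIs. The first block at 0 UMIs has an upper limit of 40.8 CPM, above the 29.9 CPM of the second, so a difference between blocks was not detectable at this depth.

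Together the 3 genes reached 1295 CPM in pOPC, 442 in PC and 70.9 in MEF; the sum was 152 for MEF-2F, 303 for MEF-3F, 286 for PC-2F and 235 for PC-3F. In pOPC the UMIs were 50.8% Sox9, 45.7% Sox10 and 3.54% Sox8. All SoxE UMIs of PC and 82.1% of those of MEF were Sox9. In the converted libraries Sox10 made up 85.7% (MEF-2F), 87.8% (PC-2F), 80.6% (MEF-3F) and 91.9% (PC-3F), and Sox9 7.38% to 11.5%. Near-equal counts of Sox9 and Sox10, as in pOPC, were in none of the 4 converted libraries.

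Single cells showed the same contrast, counted by which genes had a UMI. In pOPC 71 of 134 cells (53.0%, exact interval 44.2 to 61.7) had Sox9 and Sox10 without Sox8, 17 (12.7%) had all 3, 19 had Sox10 alone, 9 Sox9 alone, and 13 none. In MEF the 26 cells with Sox9 (19.8% of 131) and the 5 cells with Sox10 (3.82%) did not overlap. MEF-2F had 14 cells with Sox10 alone (17.1% of 82), 4 with Sox9 alone (4.88%), 1 with Sox8 alone and no cell with a pair. At these shares few or no shared cells would be found if the genes were unrelated, so neither absence is read as exclusion. In MEF-3F 6 cells had Sox9 and Sox10, 6 had Sox8 and Sox10, and 38 had Sox10 alone. In PC-2F the corresponding numbers were 4, 6 and 90, and in PC-3F 3, 0 and 62. No cell outside pOPC had all 3.

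**Figure D2:**
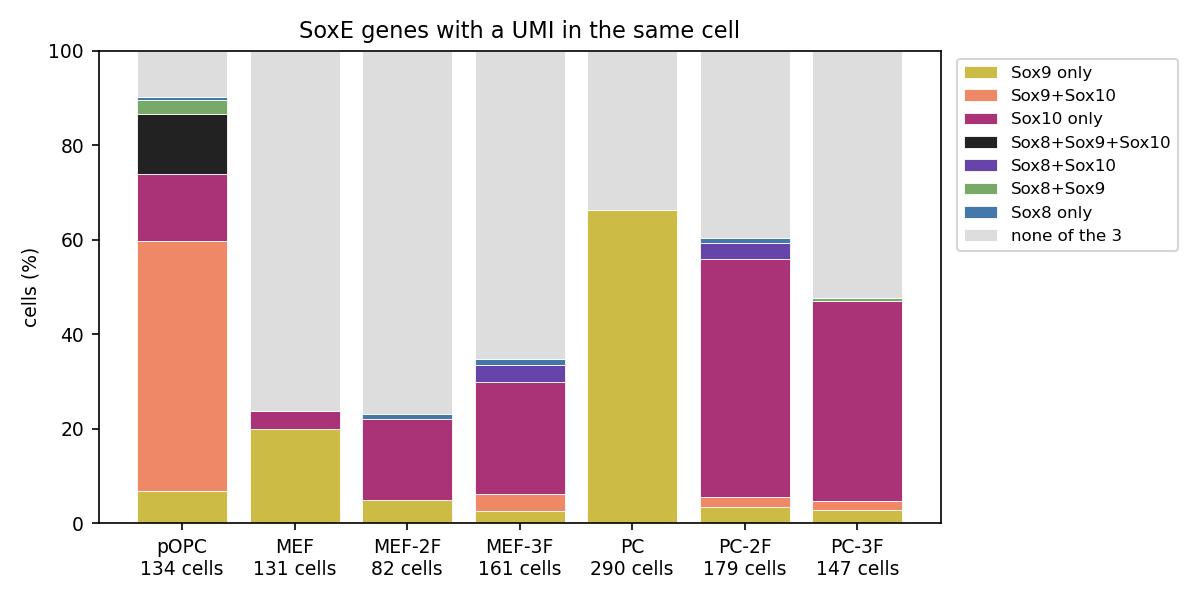
Share of cells (percent, stacked to 100) by which of Sox8, Sox9 and Sox10 had at least 1 UMI, without thinning, in the 7 libraries with their numbers of cells. Cells with Sox9 and Sox10 are the largest group in pOPC (53.0%), Sox9 alone is the one class with a SoxE UMI in PC (66.2%), and Sox10 alone is the largest such class in all 4 converted libraries.

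Within pOPC, detection of Sox9 and of Sox10 went with depth. Among the 101 cells with Sox9, 87.1% had Sox10, against 57.6% of the 33 cells without Sox9, with median UMIs of 4790 and 1378. After thinning the shares were 44.1% and 42.9%, and the Sox10 levels were 588 CPM (interval 526 to 654) and 621 CPM (447 to 839). Sox10 was at a like level in progenitors with and without a Sox9 UMI, and the other way round Sox9 was at 670 CPM (605 to 740) with Sox10 and 508 CPM (329 to 749) without. Cells with and without Sox8 held Sox9 at 816 CPM (678 to 974) and 608 CPM (540 to 682), with 4883 and 3760.5 median UMIs. These intervals meet only at their ends, and no interval of the ratio was taken, so a difference is neither given nor excluded. Sox10 was at 571 and 598 CPM in these cells.

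In PC-2F most Sox9 UMIs, though not clearly more Sox9 cells, were in cells without a Sox10 UMI. It had 28 of its 34 Sox9 UMIs in the 79 cells without Sox10 (59.0 CPM, interval 39.2 to 85.2) and 6 in the 100 cells with it (8.28 CPM, 3.04 to 18.0). The 28 UMIs came from 6 cells, and by cells the shares overlapped, at 7.59% (2.84 to 15.8) without Sox10 and 4 of 100 cells with it (1.10 to 9.93%). PC-3F had 8 of 11 in cells without Sox10 (23.8 CPM, 10.3 to 47.0) and 3 in those with it (10.03 CPM, 2.07 to 29.3), a difference within counting error. MEF-3F went the other way, with 11 of 16 Sox9 UMIs in the 50 cells with Sox10 (51.2 CPM, 25.5 to 91.5) and 5 in the other 111 (20.6 CPM, 6.67 to 48.0), also within counting error. The sets of PC-2F were close in depth (medians of 6674.5 and 5756 UMIs) and less so in MEF-3F (3105 and 1458).

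Converted cells with a Sox9 UMI held less of the cartilage collagen Col9a1 than the other cells in PC-2F, PC-3F and MEF-3F, and not in MEF-2F. In PC-2F Col1a1, a fibrillar collagen of mesenchymal cells chosen after its values were seen, was at 1417 CPM (interval 1148 to 1731) in the 10 cells with Sox9 and 310 CPM (279 to 345) in the other 169. Col9a1, a cartilage collagen, was at 221 CPM (124 to 365) against 1899 CPM (1819 to 1981), and the 13 chondrocyte markers summed to 1151 against 6961 CPM. Median depth was 6233.5 and 6259 UMIs. In PC-3F the 8 cells with Sox9 had Col9a1 at 2790 CPM (2344 to 3296) against 3751 CPM (3596 to 3912), but Col1a1 at 849 CPM (612 to 1148) against 767 CPM (698 to 841), which overlap. In MEF-3F the 10 cells with Sox9 had Col9a1 at 1692 CPM (1345 to 2100) against 4398 CPM (4197 to 4606). In MEF-2F the 4 cells with Sox9 had Col9a1 at 2922 CPM (1941 to 4222) against 1827 CPM (1653 to 2015), intervals that meet only at their ends. Chondrocyte markers were at 19094 CPM against 12479 CPM in these cells. Median depth was higher in the Sox9 cells of PC-3F and MEF-3F (5616 against 3914 UMIs, and 3900.5 against 1847). These sets are small, and all are cells of 1 library each.

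In MEF-3F 6 of the 8 cells with Sox8 had a Sox10 UMI (75.0%, interval 34.9 to 96.8) and 2 had none, against 44 of the other 153 (28.8%, 21.7 to 36.6). Pooled, the 8 cells held 26 Sox10 UMIs, or 754 CPM (interval 492 to 1104), against 203 CPM (162 to 251) in the other 153. These intervals leave out the spread between cells, and 1 cell of this library alone held 11 Sox10 UMIs. Median depth was 3549.5 UMIs in the 8 cells with Sox8 against 1849. In PC-2F the 8 cells with Sox8 had Sox10 at 307 CPM (187 to 474) and the others at 248 CPM (220 to 279), which overlap. OPC markers summed to 5884 CPM (5102 to 6752) in the Sox8 cells of MEF-3F and to 3448 CPM (3273 to 3629) in the rest. PC-2F went the other way, with 2301 CPM (1947 to 2700) in cells with Sox8 and 2832 CPM (2735 to 2932) in the rest. The sums in pOPC were 8038 and 7269 CPM.

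Sox10 in the untreated fibroblasts came from 5 cells. They held 1 to 3 Sox10 UMIs each and between 2281 and 11990 UMIs in all. All 7 UMIs of Erbb3, the neuregulin receptor of Schwann and crest cells, were in 3 of the 5. None had Sox9, which 19.8% of all MEF cells had, and Sox8 and Olig2 were at 0 in the whole library. Fibroblast markers summed to 8955 CPM in the 5 cells and 26281 CPM in the others, and Col1a1 was at 716 and 4997 CPM. Together these cells hold all Sox10 of the donor library, so the MEF base of the Sox10 ratio rests on them.

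MEF-2F showed a split in marker sums between cells with and without Sox10 that the other converted libraries did not show at this size. Its 14 cells with Sox10 and its 13 cells with Olig2 did not overlap, although both factors were transduced. They were 17.1% and 15.9% of 82 cells, and 11 of the 13 held 1 Olig2 UMI. At such shares few cells with both would be found if the factors were unrelated, so the 0 is not read as exclusion. Cells with both numbered 103 of 134 for pOPC, 28 of 161 for MEF-3F, 60 of 179 for PC-2F and 20 of 147 for PC-3F. All 14 Sox10 cells had Erbb3 (865 CPM, interval 629 to 1161, against 262 CPM, 193 to 349, in the other 68). Col2a1, the main cartilage collagen, had 1 UMI in them (19.7 CPM) and 739 in the other 68 cells (4123 CPM), and Col9a1 1 and 430. The 10 Schwann cell markers summed to 12171 CPM (11231 to 13169) with Sox10 and 3816 CPM (3535 to 4113) without. The 13 chondrocyte markers summed to 413 CPM (256 to 631) and 16256 CPM (15671 to 16857), and the 10 OPC markers to 374 and 2198 CPM. Among the Schwann markers Cdh19 had 0 UMIs in this library. Olig2 and Sox9 UMIs were found in the first barcode block of MEF-2F only, whereas Sox10 was at 116 CPM in the first and 184 CPM in the second (intervals 71.8 to 177 and 83.9 to 348). The second block has 17 cells, so that 3 cells with an Olig2 UMI would be 17.6% of it. Whether Sox10 in the 14 cells came from the virus was not tested, since the counts do not separate virus-borne Sox10 from the cells' own.

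In MEF-3F the cells with and without Sox10 showed no such split. OPC markers summed to 3684 and 3585 CPM, chondrocyte markers to 19265 and 17008 CPM, and Schwann markers to 1288 and 2146 CPM. Sox10 was also read after thinning to 1000 UMIs, by a single random draw per cell whose spread was not assessed. The set without Sox10 then includes cells that held Sox10 UMIs before thinning. The chondrocyte difference turned, to 15314 CPM in cells with Sox10 and 18769 CPM in those without, so no direction is given for it. The Schwann sums came to 1722 and 1788 CPM. Olig2 was at 372 CPM with Sox10 and 292 CPM without, with overlapping intervals. After the thinning draw it was at 547 CPM (interval 402 to 727) with Sox10 and 279 CPM (226 to 340) without, which do not overlap.

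In converted pericytes all 3 marker sums were higher in cells with Sox10. In PC-2F OPC markers were at 3172 CPM (interval 3043 to 3304) with Sox10 and 2241 CPM (2109 to 2380) without, Schwann markers at 1856 and 1169 CPM, and chondrocyte markers at 7794 and 4860 CPM. In PC-3F the OPC sums were 3630 CPM (3417 to 3853) and 2511 CPM (2345 to 2687), the Schwann sums 2631 and 1898 CPM, and the chondrocyte sums 11829 and 8216 CPM. Fibroblast markers were at 10295 and 10596 CPM in PC-2F and 16191 and 14367 CPM in PC-3F. Cells with Sox10 were slightly deeper (medians 6674.5 and 5756 UMIs in PC-2F, 4243 and 3685 in PC-3F). The part of depth in this was examined only by thinning, with a single random draw per cell. That draw kept these directions for OPC, Schwann and chondrocyte markers, and its spread was not assessed.

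**Figure D3:**
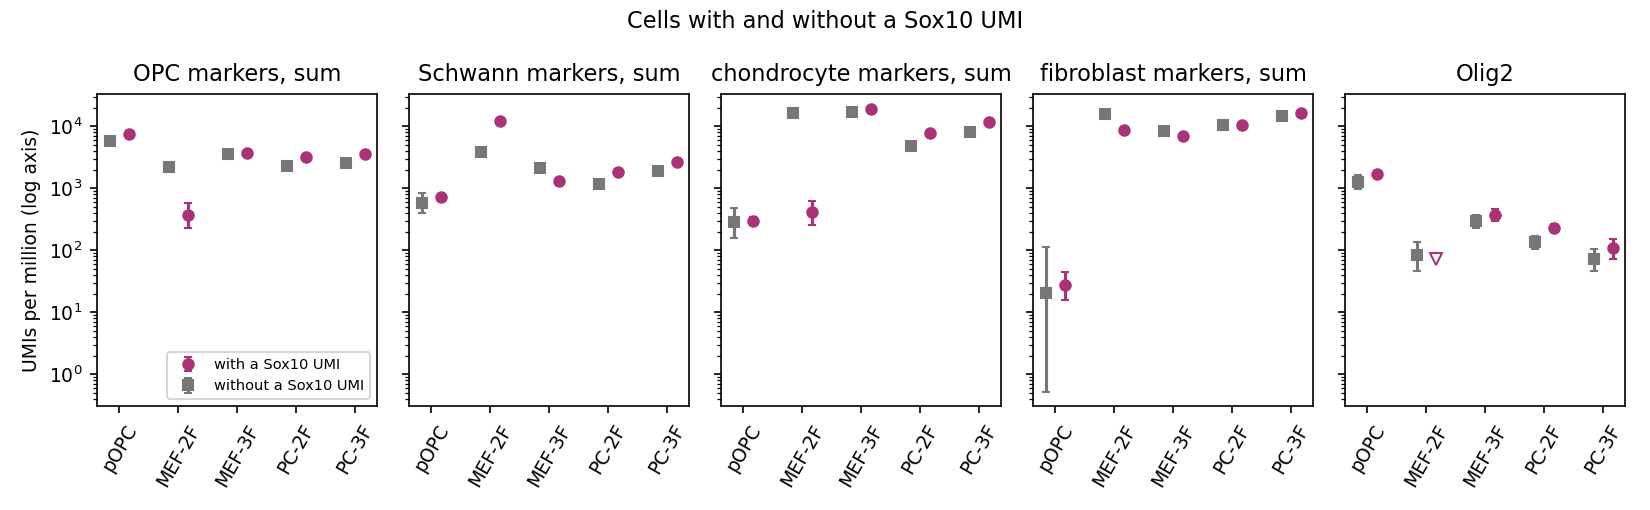
Summed levels of 4 marker sets and the level of Olig2 (CPM, log axis) in cells with (circles) and without (squares) a Sox10 UMI, with 95% exact Poisson intervals; an open triangle marks 0 UMIs at the upper end of its interval. In MEF-2F the cells with Sox10 are high in Schwann markers (12171 CPM) and low in chondrocyte (413 CPM) and OPC markers (374 CPM), while in PC-2F and PC-3F the OPC, Schwann and chondrocyte sums are all somewhat higher in cells with Sox10.

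Known targets were followed in 3 lists, each by counts among members with enough UMIs; 4 values given without names are those of MEF-2F, MEF-3F, PC-2F, PC-3F in this order. A gene at 0 in the donor enters these counts only when it is high after conversion, so the counts describe the lists and support no more. Of 11 oligodendroglial genes regulated by Sox10, 5 were measured in MEF-2F against MEF and 8 in each of the other comparisons with the donor. All of these were called higher, where 19.0%, 23.6%, 17.7% and 18.8% of all measured genes were. Cnp, an enzyme of myelinating glia, rose from 21.5 CPM in MEF to 878 in MEF-2F and 408 in MEF-3F, and from 29.4 in PC to 580.5 in PC-2F and 457 in PC-3F. These levels exceeded the 191 CPM of pOPC. Cspg4 (NG2), a proteoglycan of progenitors, was at 365, 286, 675 and 969 CPM in the 4 converted libraries, beside 360 in pOPC, 89.9 in MEF and 55.7 in PC. Pdgfra, the growth factor receptor of progenitors, stayed below the 1374 CPM of pOPC in all 4 (17.4, 107, 371 and 537 CPM). The median log2 ratio of the measured members over the donor was 5.24, 3.86, 3.94 and 4.03, with all-gene medians of 0.05, 0.27, 0.05 and 0.05. With genes at 0 set at 3 UMIs the MEF-3F median was 3.46 and the others were the same.

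Of 12 Schwann and neural crest genes regulated by Sox10, 7, 8, 7 and 7 were measured. In each converted library 6 of these were called higher than in the donor, where 19.0%, 23.6%, 17.7% and 18.8% of all measured genes were. Egr2 was among the 6 in MEF-2F and MEF-3F, and Mitf in PC-2F and PC-3F. Pou3f1, Erbb3, Ednrb and S100b were among those higher in all 4. Erbb3 was at 395, 308, 478 and 748 CPM in the 4 converted libraries, 3.16 in pOPC, 8.86 in MEF and 0 in PC. Ednrb, the endothelin receptor of crest cells, was high in the converted fibroblasts and low in the converted pericytes: it was at 2086 and 615 CPM in MEF-2F and MEF-3F, 29.2 and 52.0 CPM in PC-2F and PC-3F, and 283 CPM in pOPC. Pmp22, a myelin protein gene with wide expression, was measured and not called in any of the 4. The medians over the donor were 8.35, 5.55, 6.98 and 7.82 on the log2 scale, or 5.75, 4.24, 4.38 and 5.22 with genes at 0 set at 3 UMIs, beside the all-gene medians given above.

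Cartilage genes regulated by Sox9 were higher in the converted libraries, although Sox9 was not. Of 14, all measured members were called higher than in the donor: 9 of 9, 10 of 10, 9 of 9 and 9 of 9, where Sox9 was lower or not called. The shares of all measured genes called higher there were 19.0%, 23.6%, 17.7% and 18.8%. The 9 shared by all were Col2a1, Col9a1, Col9a2, Col9a3, Col11a1, Col11a2, Col27a1, Acan and Hapln1, which encode collagens and the aggrecan scaffold of cartilage matrix. Summed, the list reached 12955, 18191, 6699 and 10106 CPM, beside 993 in MEF, 56.5 in PC and 313 in pOPC. Col9a1 was at 1873, 4111, 1804 and 3676 CPM in the converted libraries, 2.53 in MEF, 0 in PC and 22.1 in pOPC. Col2a1 split by donor: 3216 and 2937 CPM in MEF-2F and MEF-3F but 37.5 and 48.8 CPM in PC-2F and PC-3F. The medians over the donor were 7.92, 7.91, 7.44 and 8.93, or 5.95, 6.81, 5.67 and 6.77 with genes at 0 set at 3 UMIs. Comp, Cnmd and Snorc, further cartilage genes, were at or near 0 in all libraries. Against pOPC every measured member was called higher, again 9, 10, 9 and 9, where 18.3%, 19.9%, 19.9% and 19.0% of all genes were. Of the 14 members, 7 were at 0 UMIs in pOPC and 4 had more than 3. Members at or near 0 in pOPC were measured only where they were high after conversion, so these counts only describe the list. Fibroblast markers stood at 7714 to 15227 CPM in the converted libraries beside these values, and the part of other cell types in the cartilage sums was not tested.

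**Figure D4:**
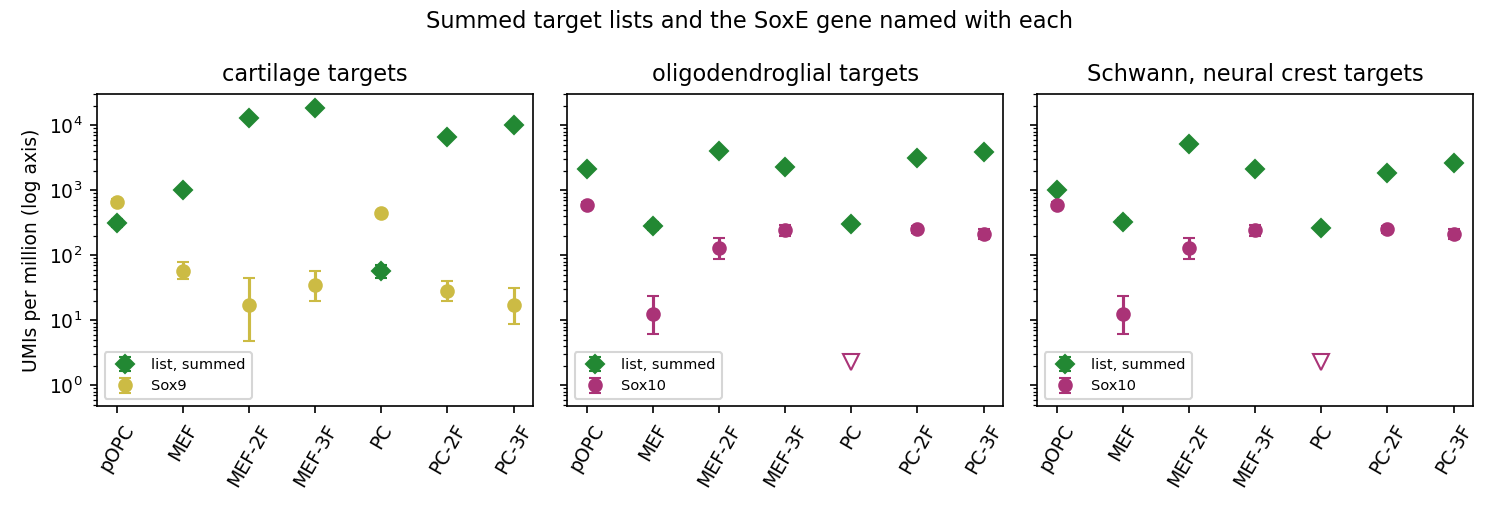
Summed levels of the cartilage, oligodendroglial, and Schwann and neural crest target lists (diamonds) with the level of Sox9 or Sox10 (circles) in CPM on a log axis, with 95% exact Poisson intervals; an open triangle marks Sox10 at 0 UMIs in PC, drawn at 3 UMIs. The cartilage list is highest in the 4 converted libraries (6699 to 18191 CPM), where Sox9 is at 17.3 to 34.9 CPM, and lowest in PC (56.5 CPM), where Sox9 is at 442 CPM.

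Other Sox genes gave a mixed picture. Of 16, 3 of 4, 6 of 6, 3 of 4 and 2 of 3 measured members were called higher than in the donor. Of all measured genes 19.0%, 23.6%, 17.7% and 18.8% were called higher in these comparisons, and members at 0 in the donor were measured only where they were high. Sox6, a SoxD partner of Sox9 in cartilage and of Sox10 in glia, was higher in all 4: it was at 60.8, 118, 91.7 and 80.3 CPM in the 4 converted libraries, with 2.53 in MEF, 0 in PC and 289 in pOPC. Sox2, a SoxB1 factor of neural progenitors, was at 0 in both donors and at 191, 332, 134 and 18.9 CPM after conversion, beside 661 CPM in pOPC. Sox4, a SoxC factor of immature cells, was at 183, 192, 104 and 81.9 CPM, against 82.3 in MEF and 47.2 in PC. Sox3 and Sox12 were at 99.6 and 60.1 CPM in pOPC and below 10 CPM in both converted pericyte libraries. The medians were 2.74, 4.64, 4.52 and 1.63, or 2.74, 3.75, 3.22 and 1.63 with genes at 0 set at 3 UMIs.

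Cofactors and regulators of SoxE turnover had the smallest medians of the 5 lists. Of 14, 4 of 11, 5 of 12, 5 of 12 and 5 of 12 measured members were called higher than in the donor, and Fbxw7 was called lower in PC-3F. The shares over all genes were 19.0%, 23.6%, 17.7% and 18.8%. Nfia, Chd7 and Wwp2 were higher in all 4. Nfia, a partner of Sox9 in gliogenesis, was at 330, 325, 199 and 358 CPM, near the 329 CPM of pOPC and above 48.1 in MEF and 48.7 in PC. Chd7, a chromatin remodeler that works with Sox10, was at 56.5, 216, 128 and 132 CPM, below the 289 CPM of pOPC and above 11.4 in MEF and 15.5 in PC. Wwp2, a ubiquitin ligase of cartilage, was at 217, 493, 294 and 436 CPM, beside 11.1 in pOPC, 49.4 in MEF and 39.5 in PC. The medians were 0.64, 0.83, 0.81 and 0.87.

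With Nkx6.2 added to the pair of factors, no SoxE gene was called. Sox8 had too few UMIs in PC-3F and PC-2F (1 and 8) to be measured, so it could not be called there. The wide intervals of Sox8 and Sox9 do not exclude changes past 2-fold. The ratios lay on opposite sides of 1 in the donors, a difference that was not tested. In the first barcode blocks alone the ratio from fibroblasts turned for Sox8 and Sox9 (log2 ratio of MEF-3F over MEF-2F of -0.58 for each). These values rest on 0 against 1 UMI for Sox8 and 1 against 4 for Sox9. From MEF-2F to MEF-3F the ratio was 5.52 for Sox8 (interval 0.803 to 238), 2.01 for Sox9 (0.648 to 8.26) and 1.87 for Sox10 (1.24 to 2.91). The Sox10 interval excludes 1 but the ratio is below 2. Among all genes 9.36% were called higher and 7.01% lower. From PC-2F to PC-3F the ratios were 0.236 for Sox8 (0.00532 to 1.76), 0.611 for Sox9 (0.279 to 1.23) and 0.860 for Sox10 (0.697 to 1.06), where 5.08% of genes were called higher and 5.98% lower. Olig2, in contrast, was called higher in MEF-3F than in MEF-2F (5.06-fold, 2.97 to 9.26) and lower in PC-3F than in PC-2F (2.17-fold, 1.61 to 2.95).

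Between donors under the same factors, Sox10 was 1.93-fold lower in MEF-2F than in PC-2F (interval 1.32 to 2.90) and at a ratio of 1.13 in MEF-3F over PC-3F (0.874 to 1.46). Neither was called, where 15.0% and 12.6% of genes were called lower. Sox9 was at ratios of 0.613 (0.158 to 1.72) and 2.02 (0.878 to 4.80) in these comparisons. Between the donors themselves Sox9 was called lower in MEF, by 7.59-fold, where 20.5% of genes were called lower. After conversion the interval allows MEF-2F to be at most 6.33-fold below PC-2F, and MEF-3F at most 1.14-fold below PC-3F.

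The levels of the 3 genes over the 7 libraries followed each other unevenly. On the scale of log2(CPM + 5), Pearson's r over 7 libraries was 0.76 for Sox8 and Sox10, 0.29 for Sox8 and Sox9 and -0.26 for Sox9 and Sox10. These are descriptions over libraries that differ in cell type and depth. Among 3935 genes with at least 100 CPM in 1 library, those most like Sox10 were Tnik (0.99), Sox6 (0.99), Ilf2 (0.98), Spata13 (0.98) and Mtss1l (0.97). Tnik, a kinase, was at 221 CPM in pOPC, 12.7 in MEF, 5.42 in PC and 86.9 to 153 in the converted libraries. Those most like Sox9 were Tuba1a (0.98), Nhp2 (0.97), Actr1a (0.96), Ngfrap1 (0.96) and Prmt5 (0.96), and those most like Sox8 were Caprin1 (0.98), Bclaf1 (0.97), Bcas2 (0.97), Acin1 (0.97) and Rbmx (0.97). Tuba1a, a tubulin, was at 2327 CPM in pOPC, 2391 in PC, 1100.4 in MEF and 780 to 1094 in the converted libraries. None of the 15 stayed among the 5 nearest by Spearman's rank correlation.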

How the data were processed

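The authors deposited 1 matrix per library and did not name the kind of its values (other than a known unit). Per the submitters' processing notes the build was mm10 and the tools were featureCounts 1.6.1 (Subread), STAR 2.5.3a, UMI-tools 0.5.3 and bcl2fastq 2.19.1.403; the counting strand is not given in the sources used here. A deposited value was taken to be the place of a UMI count in the text-sorted list of occurring counts. No label states this; it was inferred from the values, and every level depends on it. Counts were recovered per barcode block by fitting a smooth frequency curve to these lists. All SoxE codes fell on counts up to 18 with probability 1, given this rule and curve. Decoding was tested on data simulated with the same rule. That test cannot show whether the rule holds for the deposited values. Of 1140 barcodes, 1124 passed as cells, with 500 UMIs or more and less than 20% of them mitochondrial. Doublets were not called. UMIs were summed per library, which holds 1 sample per population, so no test was made; 0.5 UMIs were added for log2 ratios. Genes with at least 10 UMIs and 20 CPM in 1 of 2 libraries counted as measured, and a level of 0 was set at 3 UMIs for a bound. Intervals are exact Poisson (levels), Clopper-Pearson (shares) and conditional binomial (ratios) at 95%. Named were the 3 members, Olig2, Col2a1, Col9a1, the overlapping antisense gene, up to 5 measured genes per list by level plus those called in every converted library, and the 5 most alike in pattern; a few of these genes are not reported here. The members, lists and comparisons were chosen with earlier results of these data known. Alternatives changed the decoding, cell filters, thinning, scaling and blocks. Sequences and coordinates come from GENCODE vM21 (GRCm38). Python 3.11.15, numpy 2.4.6, scipy 1.17.1, pandas 2.3.3 and matplotlib 3.10.9 were used.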

Additional observations from a re-analysis of the deposited data

Results flagged for a closer look

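For all 3 SoxE genes the log2 ratio of 3-factor over 2-factor cells had opposite signs in the 2 origins, which the single libraries do not allow to be tested. For Sox8 it was 1.94 from fibroblasts and -1.59 from pericytes, resting on 1 UMI in MEF-2F and 1 in PC-3F. For Sox9 it was 0.88 and -0.67, and for Sox10 0.89 and -0.22. In the first barcode blocks alone the ratio from fibroblasts turned for Sox8 (-0.58) and for Sox9 (-0.58), so that both origins were then negative. For Sox10 it stayed positive (0.71). The turned values rest on 0 UMIs in MEF-3F against 1 in MEF-2F for Sox8, and on 1 against 4 for Sox9, too few to give a direction. The difference between origins was not tested, and of the 6 ratios the Sox10 one from fibroblasts alone has an interval that excludes 1.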

How the results depend on the processing

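Of 120 alternative values for the levels, 112 stayed within the counting interval. Barcode blocks, an alternative chosen after seeing the data for levels, moved 6: the first block alone gave Sox9 344 CPM in PC, and Sox8 0, Sox9 11.1 and Sox10 188 CPM in MEF-3F, and the second alone gave Sox8 0 and Sox9 0 CPM in MEF-2F. Leaving out the 1 cell with Sox8 gave 0 in MEF-2F and in PC-3F. Of 220 alternatives for log2 ratios, 206 stayed and none reversed a called direction. The first block alone gave, over MEF, -1.83 for Sox9 in MEF-3F; over PC, 6.33 (PC-2F) and 6.11 (PC-3F) for Sox10; over pOPC, -3.08 (Sox8), -5.31 (Sox9) and -1.61 (Sox10) in MEF-3F and -3.90 (Sox8), -0.92 (Sox9) and -7.56 (Sox10) in PC; and -0.58 for Sox8 in MEF-3F over MEF-2F. The second block alone gave -1.61 for Sox10 in MEF-2F over pOPC and -0.38 over PC-2F. Scaling by a trimmed mean of log ratios shifted all genes by -0.29 to 0.40, and gave -0.97 for Sox10 in PC-2F and -0.23 for Sox9 in PC, both over pOPC. Thinning to 1000 UMIs lowered co-detection: in pOPC to 21.2% (Sox9 and Sox10), 2.42% (Sox8 and Sox10) and 3.93% (Sox8 and Sox9), and for Sox9 and Sox10 to 0.389% (MEF-3F), 0.128% (PC-2F) and 0.0947% (PC-3F), with Sox8 and Sox10 at 0.195% in PC-2F; fewer UMIs per cell are the construction of this alternative. With Sox10 read after thinning by a single random draw, the chondrocyte log2 ratio of MEF-3F cells with over without Sox10 reversed to -0.29. No paired analysis was possible because each population has 1 library. The cause of the block differences was not tested.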
